A study of Mus musculus with 14 samples.

Results

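LPS given after Poly I:C was followed within 2 h by a large rise of inflammatory transcripts, led by the chemokine genes Cxcl1 and Cxcl2 and the cytokine genes Il1b, Il1a, Il6, Il10 and Il23a. All 27 tested members of 1 list of interferon-stimulated genes stayed within 2-fold of their level after PBS. Gbp5 and Irf1, counted in other lists, rose by more than 2-fold. The comparison rests on 4 of the 14 libraries of the series, chosen by their labels: 2 of macrophages given Poly I:C and then LPS and 2 of macrophages given Poly I:C and then PBS. All cells were macrophages grown from bone marrow of male C57Bl6/J mice aged 6 to 12 weeks, in medium holding L929-conditioned medium as a source of CSF-1. In both groups the cells were first kept for 24 h with Poly I:C at 100 ng/mL, washed, and then kept for 2 h with LPS or with PBS, so Poly I:C was common to both groups. The concentration of LPS in this second step is not given in the sources used here. For comparison, 3 libraries of cells given PBS first (1 then given PBS and 2 then given LPS, for 2 h) and 4 libraries of cells given Poly I:C and then PBS or LPS for 6 h were used. Replicates are numbered in the labels with no word on whether they were separate animals or cultures. The p-values therefore reflect no more than the spread among these libraries, and that spread may be technical.

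LPS is a cell wall component of Gram-negative bacteria that macrophages sense through CD14, MD-2 and TLR4. TLR4 signals through the adaptors MyD88 and TRIF, and the kinases below them activate NF-kB and AP-1 factors, which drive cytokine genes, and IRF3, which drives interferon-beta. Poly I:C, an artificial double-stranded RNA, is sensed by TLR3 and cytosolic helicases, signals through TRIF and MAVS, and leaves macrophages with high levels of interferon-stimulated transcripts.

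Expression was given as FPKM, fragments per length of transcript scaled to the size of the library, and differences as log2 fold changes of FPKM plus 1, which understate changes of weakly expressed genes. All 12 macrophage markers looked at were at 1 FPKM or more in these libraries, with Csf1r, the CSF-1 receptor gene, at 194 to 208 FPKM and Cd68 at 1706 to 2180. Of the markers of B cells, NK cells, mast cells or basophils and erythroid cells none reached 1 FPKM, and the NK cell marker Ncr1 was listed at 0 in all 4 libraries. Of the T cell markers Cd4, which macrophages can express, was the only one at 1 FPKM or more. The endothelial marker Kdr stood at 43.2 and 48.0 FPKM after PBS and 31.2 and 29.9 FPKM after LPS and was called lowered. The dendritic cell marker Xcr1 stood at 6.95 to 8.94 FPKM and was not called, while Zbtb46 was called raised, from 0.312 and 0.346 FPKM to 1.09 and 1.68 FPKM. The neutrophil marker Camp was called lowered, from 1.15 and 0.696 FPKM to 0.132 and 0.502 FPKM. The calls for Kdr and Camp were lost without Poly I:C then PBS replicate 1, and the part of these and the stromal markers in the results was not tested. Collagen transcripts were present and uneven, with Col1a1, a stromal marker, at 20.1 and 18.7 FPKM in the PBS libraries and 38.4 and 11.8 FPKM in the LPS libraries. The stromal markers summed to 60.5 and 60.4 against 116 and 44.4 FPKM. In bulk RNA, fewer cells of a type and less RNA per cell cannot be told apart. Replicates correlated at r = 0.984 for Poly I:C then PBS and 0.985 for Poly I:C then LPS; these are correlations over the 11977 tested genes, and genes are not independent of each other. The table holds no counts. From the steps between low values, 1 FPKM rested on 59.1% as many fragments in the second Poly I:C-then-LPS library as in the first Poly I:C-then-PBS library, against 106% and 111% in the other two, so its low values are the least certain. This quantity includes the unknown scaling between libraries.

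Of the 11977 tested genes, 1681 were raised by LPS, which is 14% of those tested, and 1044 were lowered, which is 8.72% (limma, Benjamini-Hochberg adjusted p under 0.05, n = 2 libraries per group). Increases were larger than decreases: 764 raised and 180 lowered genes changed at least 2-fold, and 64 raised and 6 lowered genes at least 8-fold. The median over all tested genes was 0.04 on the log2 scale. One of the control libraries, Poly I:C then PBS replicate 1, held more inflammatory transcript than its partner. It was the higher of the pair in 85.9% of the 64 genes raised at least 8-fold, with a median difference of 0.72, against 48.6% of all tested genes. The matching libraries at 6 h differed in those 64 genes by a median of 0.10. Over all tested genes, calls fell when any 1 of the 4 libraries was left out, not only replicate 1. Fewer calls without replicate 1, here and below, are to be read beside that. Without replicate 1, 1179 genes were raised and 588 lowered. Of the 764 genes raised at least 2-fold 732 remained called, of the 180 lowered at least 2-fold 166 remained called, and none of the called genes turned direction.

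**Figure D1:**
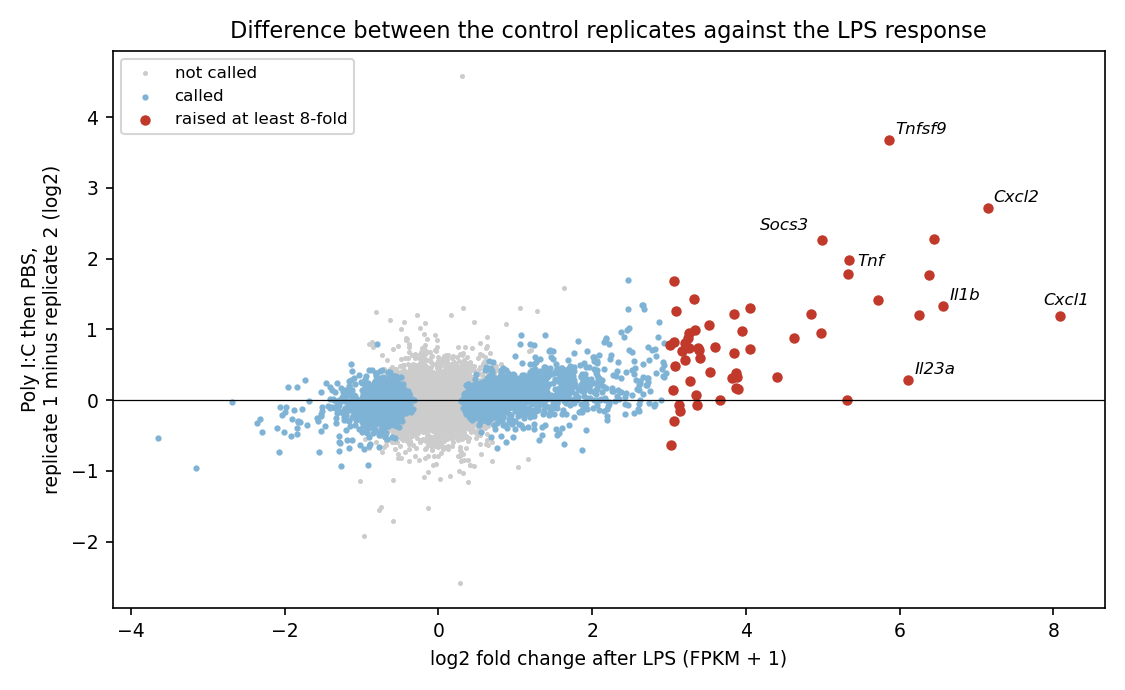
Difference between the 2 Poly I:C-then-PBS libraries at 2 h (replicate 1 minus replicate 2, log2 of FPKM plus 1, vertical axis) against the log2 fold change after LPS (horizontal axis) for entries of 1 protein-coding gene, each point 1 gene, red where raised at least 8-fold. Most red points lie above 0, where replicate 1 is the higher control, with Tnfsf9 the farthest among those labelled; replicate 1 also enters the fold change, so the 2 axes are not independent.

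Upstream sequences are shown for 4 raised genes with a match to the NF-kB consensus and for 2 interferon-stimulated genes with a match to the interferon-stimulated response element (ISRE, searched on both strands as GAAA, any 2 bases and GAAA). Each is the stretch of 120 bases before the RefSeq start (GRCm38.p6), read 5′ to 3′ on the gene's strand, with matches on either strand in capitals.
Cxcl1: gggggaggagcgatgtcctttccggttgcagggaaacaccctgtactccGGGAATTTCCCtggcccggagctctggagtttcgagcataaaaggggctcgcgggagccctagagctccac
Cxcl2: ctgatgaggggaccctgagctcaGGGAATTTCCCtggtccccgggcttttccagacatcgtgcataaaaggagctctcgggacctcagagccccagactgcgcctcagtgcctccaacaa
Il6: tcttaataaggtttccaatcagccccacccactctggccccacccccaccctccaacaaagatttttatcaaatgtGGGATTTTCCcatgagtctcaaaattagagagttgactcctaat
Nfkbia: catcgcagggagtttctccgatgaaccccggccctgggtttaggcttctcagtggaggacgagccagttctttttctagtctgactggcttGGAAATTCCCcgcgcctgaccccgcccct
Isg15: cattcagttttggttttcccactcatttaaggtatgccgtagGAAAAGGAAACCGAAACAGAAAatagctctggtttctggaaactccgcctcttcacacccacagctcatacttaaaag
Ifit1: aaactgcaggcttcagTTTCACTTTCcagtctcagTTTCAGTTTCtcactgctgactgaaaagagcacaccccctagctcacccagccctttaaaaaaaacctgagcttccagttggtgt

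The windows lie at chr5:90891125-90891244, plus strand (Cxcl1); chr5:90903779-90903898, plus strand (Cxcl2); chr5:30012994-30013113, plus strand (Il6); chr12:55492648-55492767, minus strand (Nfkbia); chr4:156200819-156200938, minus strand (Isg15) and chr19:34640769-34640888, plus strand (Ifit1). Counted back from the start, Cxcl1 and Cxcl2 carry the same match, read on both strands, beginning at -71 and -97. The match of Il6 begins at -44, and that of Nfkbia, on the opposite strand, at -29. Isg15 has 3 overlapping ISRE matches from -78 to -57, and Ifit1 has 2 on the opposite strand, beginning at -104 and -85. Within 250 bases upstream, 7.25% of all 32851 promoters, counted singly, held the NF-kB consensus and 2.98% the ISRE. Counted by gene, 10.5% of the 7736 tested genes with a promoter in the table held the NF-kB consensus and 3.39% the ISRE. The NF-kB consensus was held by 14.6% of all raised and 11.2% of all lowered genes. Among genes raised at least 8-fold, 13 of the 40 with a promoter in the table held the NF-kB consensus and 2 the ISRE. Among interferon-stimulated genes, 5 of 19 held the NF-kB consensus and 6 the ISRE. A match is a description of the letters and not of binding.

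Of 26 tested inflammatory cytokine genes 20 were raised and 1 was lowered, with a median log2 fold change of 2.16 beside 0.04 for all tested genes, and without Poly I:C then PBS replicate 1 the counts were again 20 and 1. Tnf (chromosome 17, 35199381 to 35202007, GRCm38), the gene of tumour necrosis factor, stood at 285 and 71.5 FPKM in the PBS libraries and 5647 and 6065 FPKM in the LPS libraries. The libraries of each group did not overlap, although the PBS libraries differed 3.99-fold between them. The log2 fold change was 5.34 ± 0.48 (SE, limma adjusted p = 3.12e-05), and 6.34 without replicate 1 of the controls. The excess of that control library over its partner came to 3.65% of the mean level after LPS.

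Il1b (chromosome 2, 129364562 to 129376162), which encodes the inflammasome-processed cytokine IL-1beta, stood at 38.5 and 14.7 FPKM after PBS and 2197 and 2506 FPKM after LPS. Its neighbour Il1a stood at 62.1 and 12.0 FPKM and at 2393 and 2614 FPKM. For both genes each LPS library was far above each PBS library, and replicate 1 was the higher control. The log2 fold changes were 6.56 ± 0.35 (limma adjusted p = 2.16e-06) for Il1b and 6.45 ± 0.56 (limma adjusted p = 2.59e-05) for Il1a, or 7.23 and 7.59 without control replicate 1. Il6 (chromosome 5, 30013161 to 30019968), whose promoter is shown above, stood at 6.90 and 1.33 against 322 and 395 FPKM, a change of 6.38 ± 0.46, or 7.26 without that library.

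Il23a (chromosome 10, 128296140 to 128298084) encodes the p19 subunit that pairs with the p40 subunit, encoded by Il12b, to form IL-23. It was nearly silent in the PBS libraries, at 0.216 and 0 FPKM, and stood at 65.7 and 86.5 FPKM after LPS, so both LPS libraries were far above both controls. The change was 6.11 ± 0.18 (limma adjusted p = 1.85e-07), with 6.25 without control replicate 1. Il12b went from 0.573 and 0.256 FPKM to 26.6 and 31.0 FPKM, a change of 4.40 ± 0.25. Csf2, the gene of the growth factor GM-CSF, was listed at 0 in both PBS libraries and stood at 32.8 and 46.0 FPKM after LPS. The anti-inflammatory cytokine gene Il10 rose alongside, from 3.27 and 0.855 FPKM to 211 and 216 FPKM, a change of 6.25 ± 0.31 (limma adjusted p = 1.46e-06), or 6.85 without control replicate 1.

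Tnfsf9, which encodes the costimulatory ligand 4-1BBL, had uneven controls, with 52.1 FPKM in replicate 1 and 3.16 FPKM in replicate 2. Both LPS libraries, at 859 and 871 FPKM, were above both. Its change of 5.87 ± 0.83 (limma adjusted p = 0.000629) became 7.70 without replicate 1, and the excess of that library came to 5.66% of the level after LPS. Of the cytokine list, Il16 was lowered, from 1.27 FPKM in each PBS library to 0.436 and 0.329 FPKM, a change of -0.72. Tgfb1 at 0.17, Il18 at 0.45 and Tnfsf10 at 0.05 did not pass the test.

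**Figure D2:**
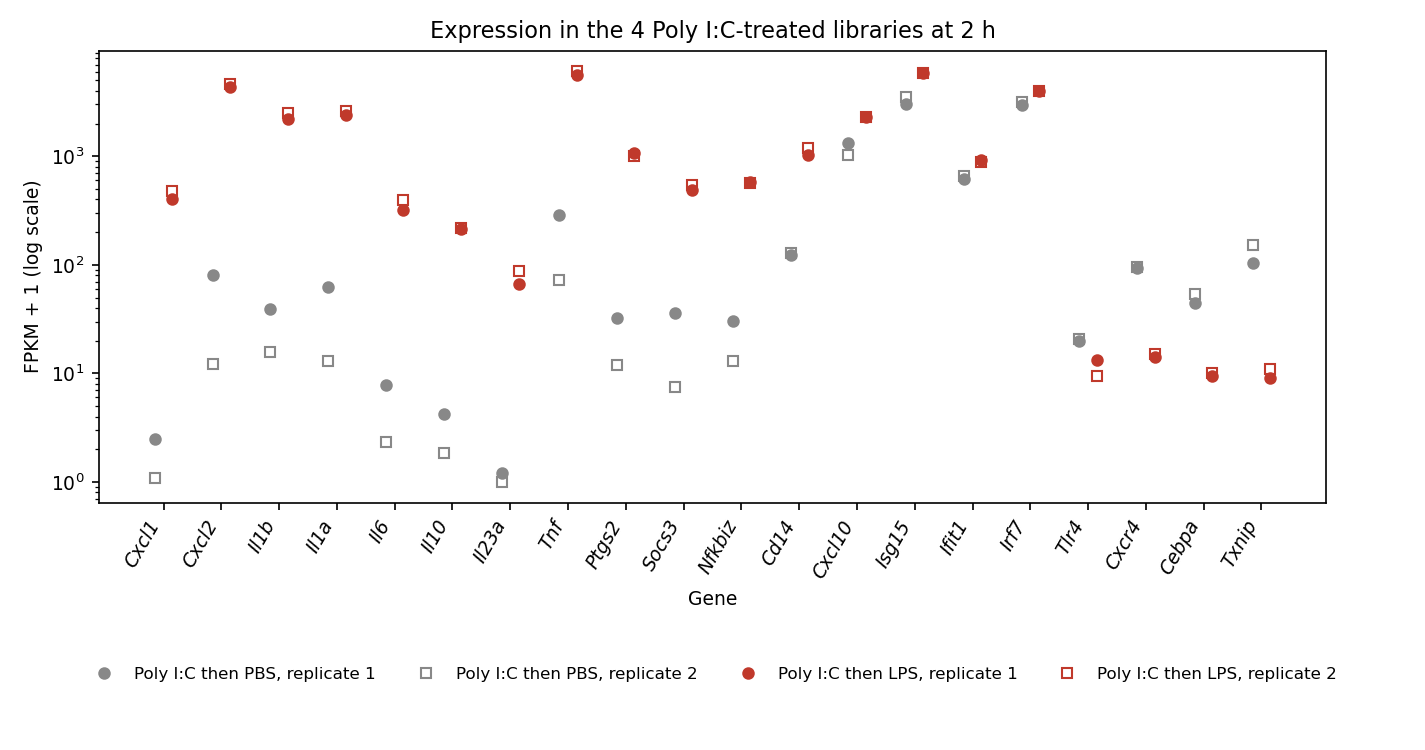
FPKM plus 1 (logarithmic vertical axis) of 20 genes in the 4 libraries, grey for Poly I:C then PBS and red for Poly I:C then LPS, circles for replicate 1 and squares for replicate 2. From Cxcl1 to Nfkbiz the red points lie far above the grey ones and the grey circle lies above the grey square; from Cxcl10 to Irf7 the 2 groups are close, and from Tlr4 to Txnip the red points are lower.

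Of 18 tested chemokine genes 11 were raised and none was lowered (median 1.17), with the same counts without control replicate 1. Cxcl1 (chromosome 5, 90891241 to 90893115), which encodes a neutrophil attractant acting on CXCR2, had the largest change of any named gene: 1.46 and 0.0775 FPKM against 405 and 478 FPKM. The LPS libraries were close to each other and the PBS libraries both near 0. The change was 8.08 ± 0.33 (limma adjusted p = 6.93e-07), or 8.68 without control replicate 1. Cxcl2, with the same receptor, stood at 79.5 and 11.3 against 4305 and 4586 FPKM, a change of 7.14 ± 0.72, or 8.5 without that library. Ccl3, which encodes an attractant of monocytes and other leukocytes, changed by 5.33 ± 0.47, or 6.22 without it.

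Cxcl10, which attracts T cells through CXCR3, stood at 1336 and 1034 FPKM after PBS and 2306 and 2312 FPKM after LPS, a change of 0.97 ± 0.20 (limma adjusted p = 0.00621) that did not pass without control replicate 2, at 0.79. Cxcl9 at 0.14, Cxcl11 at 0.15 and the T cell and monocyte attractant gene Ccl5 at 0.56 did not pass the test, although Ccl5 passed when the 4 libraries were fitted alone. Ccl5 had the highest level of these, at 25470 and 26960 FPKM after PBS and 37950 and 39300 FPKM after LPS. Among receptors for chemotactic signals, 7 of 15 were raised and 1 was lowered (median 0.38), beside 14% and 8.72% of all tested genes. Ccr7, the receptor that guides cells towards lymph nodes, changed by 2.14 ± 0.18 and the formyl peptide receptor gene Fpr1 by 2.09 ± 0.17. Cxcr4, the receptor for CXCL12, was lowered, from 92.8 and 94.3 FPKM to 13.3 and 14.2 FPKM, a change of -2.68 ± 0.20 (limma adjusted p = 1.21e-05).

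Upstream of the cytokines, genes for receptors, adaptors and kinases were uneven, while most genes for NF-kB subunits and IkB proteins were raised. Of 28 tested genes for TLRs, adaptors and kinases 15 were raised and 2 lowered (median 0.52), and without control replicate 1 the counts were 12 and 0. Cd14, the LPS co-receptor gene, stood at 122 and 128 FPKM after PBS and 1030 and 1190 FPKM after LPS, a change of 3.13 ± 0.17 (limma adjusted p = 2.22e-06). The 2 controls were nearly equal for this gene. Tlr4 itself stood at 19.0 and 19.8 FPKM against 12.2 and 8.40 FPKM, a change of -0.87 ± 0.23 (limma adjusted p = 0.0229). That call was lost without control replicate 1 (-0.90), without control replicate 2 (-0.84) and without LPS replicate 2 (-0.62). Tlr2 changed by 1.71 ± 0.15, the adaptor gene Myd88 by 0.87 ± 0.14 and the kinase gene Tbk1 by 0.74 ± 0.11.

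Of 9 tested genes for NF-kB subunits and IkB proteins 8 were raised (median 1.99). Nfkbia, which encodes the inhibitor IkB-alpha and is itself an NF-kB target, stood at 415 and 127 FPKM after PBS and 1279 FPKM in both LPS libraries. Its change of 2.47 ± 0.42 (limma adjusted p = 0.00209) became 3.32 without control replicate 1. Nfkbiz, whose product acts in the nucleus with NF-kB at secondary response genes such as Il6, stood at 29.4 and 12.1 against 581 and 563 FPKM, a change of 4.85 ± 0.32, or 5.46 without that library. Nfkb1 changed by 2.38 ± 0.12 and Rela by 0.96 ± 0.13.

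Genes whose products restrain the response rose with it. Of 27 tested feedback inhibitors 19 were raised and 1 was lowered (median 1.53), and 17 and 0 without control replicate 1. Socs3, which encodes an inhibitor of cytokine receptor signalling through JAKs, stood at 34.8 and 6.46 FPKM after PBS and 493 and 547 FPKM after LPS, a change of 4.99 ± 0.53 (limma adjusted p = 9.11e-05), or 6.12 without that library. Its close relative Socs1 stood at 11.2 and 13.9 against 11.3 and 13.8 FPKM, and did not pass the test. Tnfaip3, encoding the ubiquitin-editing enzyme A20, changed by 3.07 ± 0.42, or 3.91 without control replicate 1. Zc3h12a, encoding the RNase Regnase-1 that degrades cytokine transcripts, changed by 3.39 ± 0.21, and the MAP kinase phosphatase gene Dusp2 by 3.95 ± 0.31. The list was lowered at Sbno2, by -0.69.

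Immediate-early genes, which are switched on without new protein synthesis, were raised in 16 of 24 and lowered in none (median 1.38), or 14 and 0 without control replicate 1. Egr1 stood at 13.1 and 12.5 FPKM after PBS and 143 and 137 FPKM after LPS, a change of 3.35 ± 0.19 (limma adjusted p = 2.47e-06), and Egr2 changed by 4.05 ± 0.24. The AP-1 genes differed among themselves. Junb changed by 1.44 ± 0.22, Fos stood at 25.9 and 22.2 against 35.6 and 23.5 FPKM (limma adjusted p = 0.519), and Jun stood at 17.4 and 15.5 against 14.8 and 12.3 FPKM (limma adjusted p = 0.273).

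Ifnb1, the interferon-beta gene, stood at 51.6 and 20.6 FPKM after PBS and 218 and 210 FPKM after LPS, with no overlap. The change was 2.67 ± 0.36 (limma adjusted p = 0.000493), or 3.32 without control replicate 1. Of 27 tested interferon-stimulated genes 6 were raised and none was lowered, with a median of 0.37 and a range of -0.31 to 0.84. With all libraries the share raised, 6 of 27, stands beside 14% of all tested genes. Without control replicate 1 most of these calls were lost, calls over all tested genes also fell, and the median was 0.33.

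Isg15, which encodes a ubiquitin-like antiviral protein and whose ISRE is shown above, stood at 3021 and 3549 FPKM after PBS and 5871 and 5864 FPKM after LPS. The LPS libraries were higher, and the change of 0.84 ± 0.23 (limma adjusted p = 0.0256) did not pass when any 1 of the 4 libraries was left out, at 0.72 without control replicate 1, 0.96 without control replicate 2 and 0.84 without either LPS library. Ifit1, encoding an RNA-binding antiviral protein, stood at 616 and 660 against 924 and 880 FPKM and did not pass (0.50 ± 0.16, limma adjusted p = 0.0537), nor did Irf7 at 0.37, although each passed when the 4 libraries were fitted alone. Mx1 at 0.07 and Oasl1 at -0.01 were also not called. Of the interferon regulatory factor genes, Irf4 changed by 2.94 ± 0.17, from 0.558 and 0.243 FPKM to 8.93 and 10.5 FPKM, and Irf1 by 1.93 ± 0.23. Gbp5, a guanylate-binding protein gene, changed by 1.27 ± 0.15, and none of 8 MHC class I presentation genes passed the test (median 0.39).

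**Figure D3:**
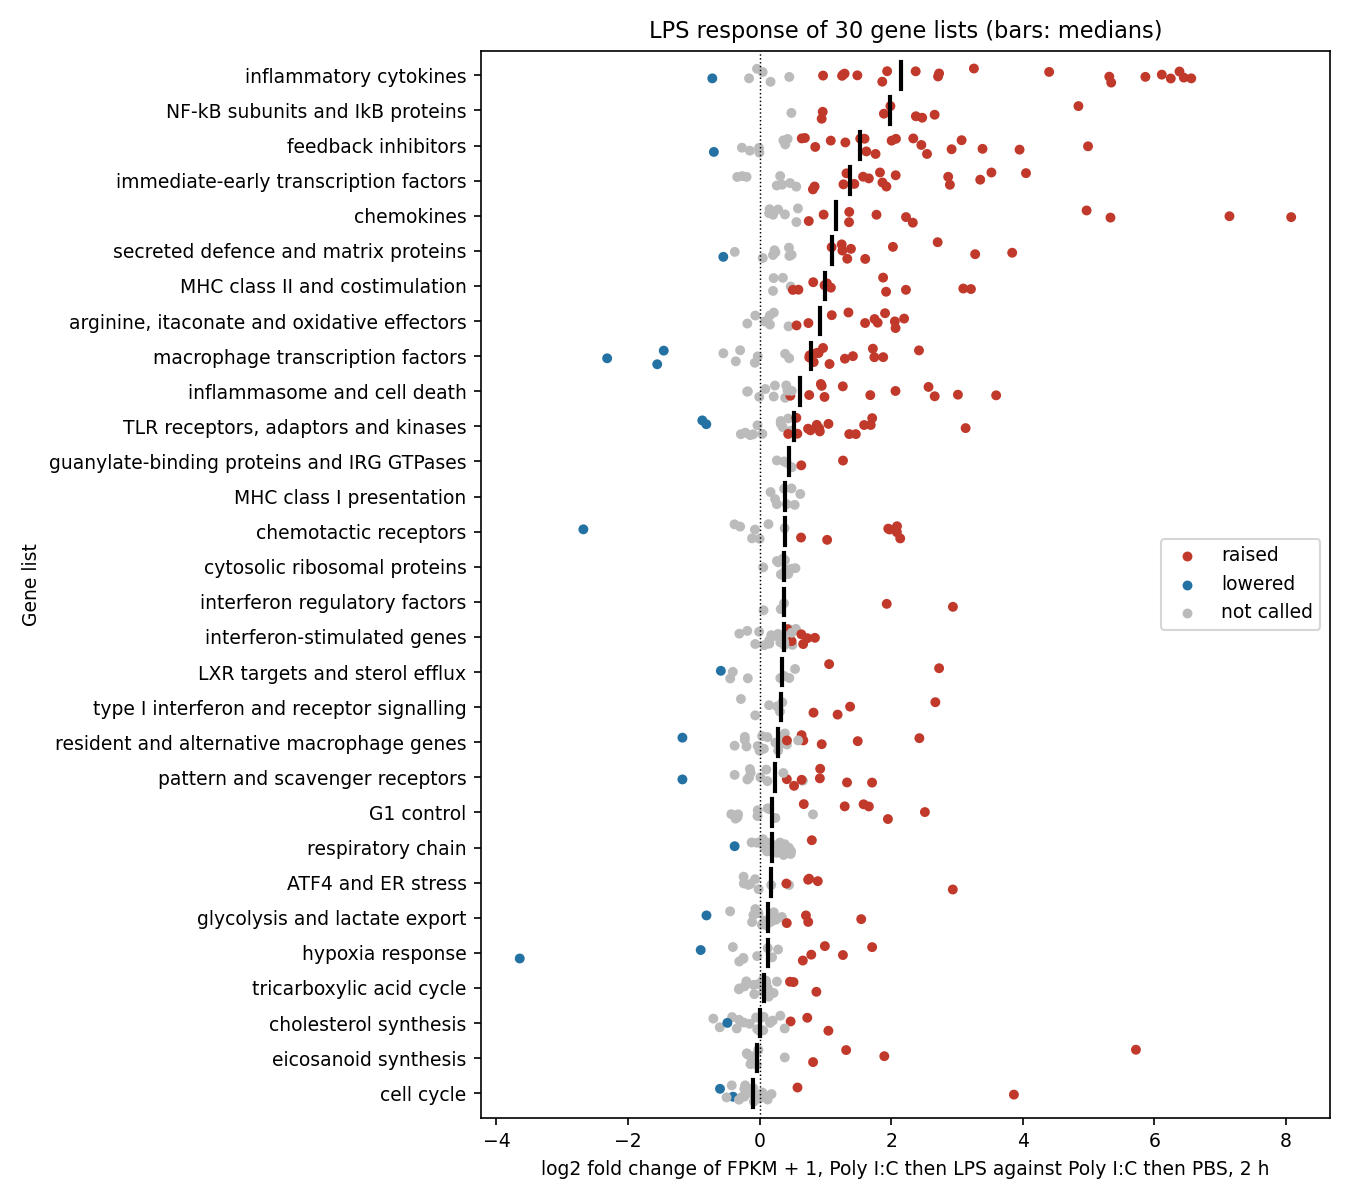
Log2 fold change of FPKM plus 1 after LPS (horizontal axis) for the tested members of 30 gene lists (vertical axis, ordered by median), each point 1 gene, with the median of each list as a bar and red, blue or grey for raised, lowered or not called. Cytokine, NF-kB, feedback and immediate-early lists lie to the right, with medians of 1.38 to 2.16, while the interferon-stimulated genes lie close together around 0.37.

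Surface and secreted effectors were raised in part. List counts here and below stand beside 14% raised and 8.72% lowered of all tested genes. Of 15 genes for MHC class II and costimulation 11 were raised (median 0.99), or 8 without control replicate 1. Cd40, the receptor through which T cells activate macrophages, stood at 219 and 222 against 954 and 1123 FPKM, a change of 2.23 ± 0.15. Cd83 changed by 3.21 ± 0.21 and Icosl, the ligand of the T cell receptor ICOS, by 3.10 ± 0.31 (3.73 without control replicate 1), whereas Cd86 at 0.20 did not pass. Ptgs2, which encodes the inducible cyclooxygenase COX-2, stood at 31.3 and 11.1 FPKM after PBS and 1068 and 1012 FPKM after LPS, a change of 5.72 ± 0.35 (limma adjusted p = 4.20e-06), or 6.43 without control replicate 1. Of 13 eicosanoid genes 4 were raised, among them Ptges, the prostaglandin E synthase gene, at 1.32 ± 0.16, and the median was -0.04.

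Among inflammasome and cell death genes 12 of 22 were raised (median 0.62), and fewer without control replicate 1 (median 0.68). Nlrp3, the sensor of the inflammasome that matures IL-1beta, stood at 41.5 and 24.3 against 398 and 394 FPKM, a change of 3.60 ± 0.21, while the adaptor gene Pycard, at 27.3 and 26.5 against 26.4 and 27.3 FPKM, and the pore-forming protein gene Gsdmd, at 0.40, did not pass. Among arginine, itaconate and oxidative genes 11 of 18 were raised (median 0.92), and fewer without control replicate 1 (median 0.94). Irg1, the itaconate-forming enzyme gene, changed by 1.75 ± 0.17 from 934 and 737 to 2818 and 2760 FPKM. Nos2, encoding inducible nitric oxide synthase, stood at 56.4 and 53.4 against 111 and 126 FPKM, a change of 1.10 ± 0.29 (limma adjusted p = 0.0224). That call was lost when any 1 of the 4 libraries was left out, with values of 1.00 to 1.19. Of 19 secreted defence and matrix genes 10 were raised and 1 was lowered (median 1.09), and fewer were called without control replicate 1 (median 0.90). Edn1, the endothelin-1 gene, changed by 3.84 ± 0.21 and the collagenase gene Mmp13 by 3.28 ± 0.18.

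Of all tested genes 14% were raised and 8.72% lowered, and the metabolic and housekeeping lists stand beside those shares. Glycolysis and lactate export genes were raised in 4 and lowered in 1 of 20 (median 0.13), and hypoxia response genes in 5 and 2 of 15, with Txnip, described below, and Vegfa (-0.90 ± 0.19) lowered. In both lists, and in that of cholesterol synthesis, fewer genes were called without control replicate 1. Hif1a, the hypoxia-inducible factor gene, changed by 0.99 ± 0.16 and the glucose transporter gene Slc2a1 by 0.74 ± 0.10, while Ldha at 0.10 did not pass. Tricarboxylic acid cycle genes were raised in 3 of 23, cholesterol synthesis genes in 3 of 21 with 1 lowered, respiratory chain genes in 1 of 22 with 1 lowered, and none of 16 cytosolic ribosomal protein genes was called. Of 22 cell cycle genes 2 were raised and 2 lowered (median -0.11), and without control replicate 1 the counts were 1 and 0, with the calls for Aurka (0.58), Mcm2 (-0.60) and Mcm6 (-0.40) lost. The respiratory chain counts became 0 and 0. Mki67, which encodes the proliferation marker Ki-67, was the one that kept its call, from 1.6 and 0.992 FPKM to 31.5 and 32.9 FPKM, a change of 3.87 ± 0.19 (limma adjusted p = 1.48e-06), while Ccnb1, Ccna2 and Plk1 stayed below 1.2 FPKM in all 4 libraries.

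Of 10 LXR target and sterol genes 2 were raised and 1 was lowered (median 0.34), with Ch25h, the cholesterol 25-hydroxylase gene, at 220 and 130 FPKM after PBS and 1069 and 1182 FPKM after LPS, a change of 2.73 ± 0.30. Of 13 ATF4 and ER stress genes 5 were raised (median 0.18), or 2 without control replicate 1, and Ppp1r15a, which encodes a phosphatase subunit that restores translation after stress, changed by 2.94 ± 0.26. Resident and alternative macrophage genes were raised in 6 and lowered in 1 of 25 (median 0.28), with fewer raised without control replicate 1 (median 0.25). The nucleotide receptor gene P2ry13 changed by 2.43 ± 0.22 and the scavenger receptor gene Stab1 by -1.17 ± 0.17. Of 16 genes of G1 control 6 were raised and none was lowered (median 0.19), with fewer raised without control replicate 1 (median 0.10). Rgs1, counted in that list although it encodes a regulator of G protein signalling and not of G1, changed by 2.51 ± 0.21. The cell cycle inhibitor gene Cdkn1a changed by 1.95 ± 0.11, from 320 and 282 FPKM to 1132 and 1198 FPKM, and the cyclin gene Ccnd2 by 1.58 ± 0.15. Myc, a growth-promoting transcription factor gene, changed by 1.66 ± 0.18, from 1.54 and 0.896 FPKM to 6.31 and 5.59 FPKM.

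The lowered genes were smaller in fold. Txnip (chromosome 3, 96555765 to 96566801), which encodes a thioredoxin-binding protein that restrains glucose uptake, stood at 103 and 150 FPKM after PBS and 8.12 and 10.0 FPKM after LPS. The groups did not overlap, and the change was -3.65 ± 0.21 (limma adjusted p = 2.98e-06). Rhov, a small GTPase gene, changed by -3.15 ± 0.30, and Zfp36l2, encoding a protein that promotes decay of AU-rich transcripts, by -2.36 ± 0.13. Cebpa, a transcription factor gene of myeloid differentiation, stood at 43.7 and 52.5 against 8.44 and 9.19 FPKM, a change of -2.32 ± 0.16. Its list of macrophage transcription factors gave 14 raised and 3 lowered of 24 (median 0.78), with fewer raised without control replicate 1 (median 0.86). Bhlhe41 was also among those lowered, at -1.46 ± 0.23. The immune receptor gene Cd300lb changed by -2.29 ± 0.20 and the sphingosine-1-phosphate receptor gene S1pr2 by -2.04 ± 0.15.

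Whether the LPS response depended on Poly I:C was tested as the difference between the LPS effect after Poly I:C and that after PBS at 2 h. The PBS-then-PBS group had 1 library, which was assumed to vary like the others. The effect was larger after Poly I:C for 302 genes, 2.52% of those tested, and smaller for 212, 1.77%. Larger and smaller are signed here and below, so a stronger decrease counts as a smaller effect. Txnip, at -3.65 after Poly I:C and -1.65 after PBS, is such a gene. Without PBS then LPS replicate 2 the counts were 836 and 801. Il23a had the largest positive difference among the genes named by rule. Cells given PBS first held 0 FPKM after PBS and 0.188 and 0.432 FPKM after LPS, so it was near 0 without Poly I:C, and the difference was 5.73 ± 0.29 (limma adjusted p = 7.93e-06).

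For Cxcl1 the level after PBS then LPS was 33.8 and 35.7 FPKM, below both Poly I:C-then-LPS libraries. The effect after Poly I:C was larger by 3.24 ± 0.53 (limma adjusted p = 0.00706). In cells given PBS first Ptgs2 stood at 1.17 FPKM without LPS and 6.80 and 9.36 FPKM with it, and its effect was larger by 3.67 ± 0.56 (limma adjusted p = 0.00489). Immediate-early genes had a larger effect in 7 of 24 and a smaller one in none, with Nr4a1, a nuclear receptor gene, at 3.92 ± 0.34 and Egr1 at 1.82 ± 0.30. For Tnf the difference was 1.55 ± 0.75 (limma adjusted p = 0.361) and for Il6 1.98 ± 0.73 (limma adjusted p = 0.21). For Il1b it was -0.72 ± 0.56 (limma adjusted p = 0.60), and none of these passed. The sizes depend on the uneven controls. The LPS effect after PBS was 3.79 for Tnf, 4.40 for Il6 and 7.28 for Il1b. After Poly I:C it was 5.34, 6.38 and 6.56, or 6.34, 7.26 and 7.23 without Poly I:C then PBS replicate 1.

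Of 27 interferon-stimulated genes 12 had a smaller LPS effect after Poly I:C and none a larger one (median -0.88), and of 18 chemokine genes 9 had a smaller and 1 a larger effect. In cells given PBS first Cxcl10 stood at 8.37 FPKM without LPS and 2585 and 2005 FPKM with it, while its Poly I:C-then-PBS libraries stood at 1336 and 1034 FPKM without LPS. The difference was -6.95 ± 0.32 (limma adjusted p = 7.15e-06). Ifit1 stood at 4.35 FPKM and at 397 and 304 FPKM in the same groups, below its 616 and 660 FPKM after Poly I:C then PBS, a difference of -5.52 ± 0.26. For Ccl5 the difference was -5.07 ± 0.40, for Irg1 -4.91 ± 0.28, for Isg15 -3.16 ± 0.37 and for Ifnb1 -2.72 ± 0.57. The last was lost without either Poly I:C-then-LPS library (-2.74 and -2.69) and without PBS then LPS replicate 1 (-2.52). After PBS then LPS, Ccl5 stood at 1823 and 996 FPKM and Irg1 at 564 and 424 FPKM. Isg15 stood there at 630 and 364 FPKM and Ifnb1 at 50.8 and 38.6 FPKM. For Ccl5, Irg1, Isg15 and Ifnb1 the levels after Poly I:C then LPS, given above, were higher, and so were their levels after Poly I:C then PBS than after PBS then PBS.

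**Figure D4:**
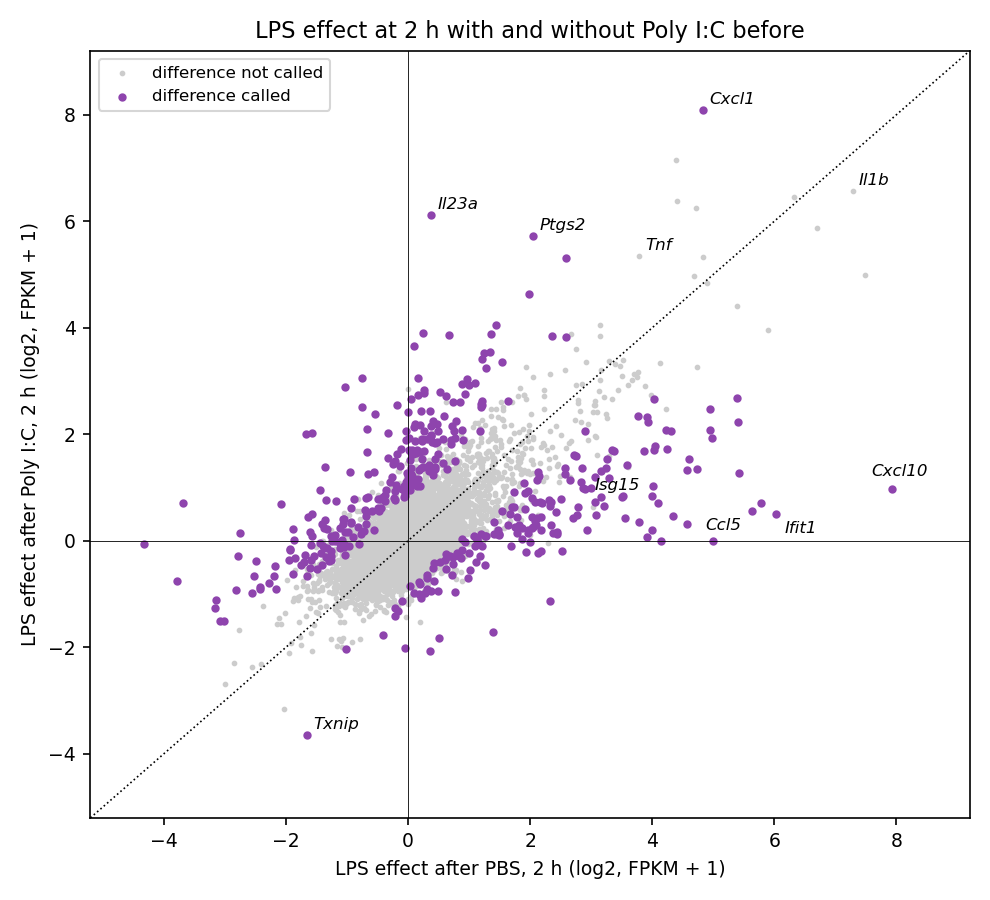
LPS effect at 2 h after Poly I:C (vertical axis) against that after PBS (horizontal axis), both as log2 fold change of FPKM plus 1, each point 1 protein-coding gene, purple where the difference was called; the dotted line marks equal effects. Il23a, Cxcl1 and Ptgs2 lie above the line, and Cxcl10, Ifit1, Ccl5 and Isg15 lie to the right, below it.

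The LPS effect after Poly I:C was also compared between 6 h and 2 h, from 4 libraries at each time that share none. It was larger at 6 h for 1077 genes, 8.99% of those tested, and smaller for 1480, 12.4%. These counts are signed too, so a stronger decrease at 6 h counts as smaller. Without control replicate 1 of the 2 h group the counts were 768 and 1040. Il1b stood at 4.99 and 3.28 FPKM after PBS and 2824 and 2533 FPKM after LPS at 6 h. Its level after LPS was a little above the 2197 and 2506 FPKM at 2 h, and its controls were lower than at 2 h. Its effect was larger at 6 h by 2.48 ± 0.50 (limma adjusted p = 0.00637). Without control replicate 1 its effect at 2 h was 7.23 in place of 6.56, against 9.05 at 6 h. Il23a stood at 14.3 and 11.9 FPKM after LPS at 6 h, below both LPS libraries at 2 h, and its effect was smaller by -2.40 ± 0.26 (limma adjusted p = 0.000232).

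Egr1 stood at 7.995 and 5.95 FPKM after LPS at 6 h against 143 and 137 at 2 h, and its effect was smaller by -2.54 ± 0.27. Nos2 stood at 5.46 and 4.23 FPKM after PBS and 300 and 234 FPKM after LPS at 6 h, with an effect larger by 4.42 ± 0.42 (limma adjusted p = 0.000111). Lcn2, which encodes an iron-scavenging defence protein, went from 2.98 and 3.74 FPKM after LPS at 2 h to 176 and 147 FPKM at 6 h, and its effect was larger by 4.90 ± 0.36. Of 27 interferon-stimulated genes 15 had a larger effect at 6 h and none a smaller one, beside lower controls: Ifit1 stood at 284 and 240 FPKM after PBS at 6 h against 616 and 660 FPKM at 2 h. Of 24 immediate-early genes 2 had a larger and 9 a smaller effect at 6 h. The effect on Cebpa and Cxcr4 was more negative at 6 h, with differences of -2.07 ± 0.22 and -2.02 ± 0.29. Txnip stood at 42.5 and 51.1 FPKM after LPS at 6 h, and its effect was less negative, a difference of 2.12 ± 0.30.

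**Figure D5:**
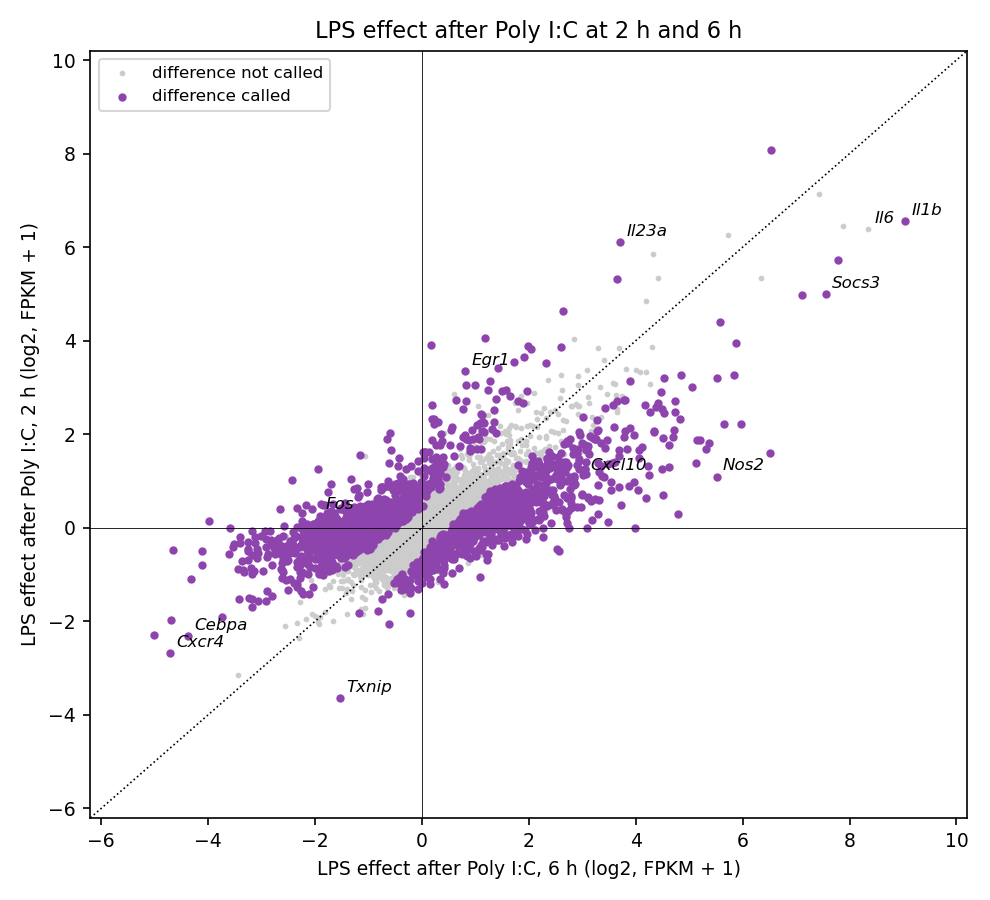
LPS effect after Poly I:C at 2 h (vertical axis) against that at 6 h (horizontal axis), both as log2 fold change of FPKM plus 1, each point 1 protein-coding gene, purple where the difference between times was called; the dotted line marks equal effects. Il23a and Egr1 lie above the line, larger at 2 h, and Nos2, Il1b and Socs3 below it, larger at 6 h.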

How the data were processed

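Polyadenylated RNA was sequenced from stranded libraries in paired reads of 76 bases, per the labels' protocols. The authors deposited FPKM values, made with TopHat2, Cufflinks and Cuffnorm according to the submitters' processing notes, which give no versions and name mm9. Coordinates are given as GRCm38, because 33803 of 33853 single-gene entries overlapped their GENCODE M21 gene there. After adding 1 and taking log2, entries that carry a name and reach 1 FPKM in 2 libraries were tested (11977, of which 832 name several genes and 3744 share a locus with another entry). These are called genes.

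One limma model (version 3.58.1, R 4.3.3) with a mean for each of the 8 groups covered the 14 libraries, with an intensity trend, 6 residual degrees of freedom, 2-sided tests and Benjamini-Hochberg adjustment over all tested genes. Errors after ± are its standard errors. The comparison, the 30 gene lists, the marker lists and the named genes were chosen with earlier results of these data known. Genes were named by rule: the 10 largest increases and 10 largest decreases among genes whose mean reached 5 FPKM and whose groups did not overlap, the 4 largest called changes per list, a fixed set, and the 5 largest differences in each direction from PBS-first cells and from 6 h. Other list members show spread, and some genes are not reported here. For symbols with several entries the one with the highest mean was used. Other settings tried were median-of-ratios scaling, a pseudocount of 0.1, all genes unfiltered, no trend, fewer libraries, a replicate block and protein-coding entries alone. Promoter sequences are RefSeq's (GRCm38.p6). The procedure was tested on simulated data.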

Additional observations from a re-analysis of the deposited data

Results flagged for a closer look

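The LPS effect differed between cells given Poly I:C and cells given PBS first, by limma's test of the difference. By sign, 302 genes had a larger and 212 a smaller effect after Poly I:C, and a stronger decrease counts as smaller. Of 40 genes looked at singly, 12 differed, beside 2.52% larger and 1.77% smaller over all tested genes. Among the 40 were genes picked for large changes after LPS in cells given Poly I:C. Those changes enter the difference, so the 2 shares cannot be compared as like with like. The log2 difference was 5.73 for Il23a, 3.67 for Ptgs2, 3.24 for Cxcl1 and 1.82 for Egr1, all larger after Poly I:C. It was -6.95 for Cxcl10, -5.07 for Ccl5, -4.91 for Irg1, -3.16 for Isg15, -2.72 for Ifnb1, -2.43 for Sertad3, -2.0 for Txnip and -1.03 for S1pr2. LPS after Poly I:C lowered Sertad3, Txnip and S1pr2, so a negative difference there is not a weaker response. Levels of Ccl5, Irg1, Isg15 and Ifnb1 were higher after Poly I:C then LPS than after PBS then LPS. Calls for S1pr2 and Ifnb1 were lost when single libraries were left out, and the other 10 were kept without each of the 6 replicated libraries in turn. For S1pr2 the value was -1.13 without Poly I:C then PBS replicate 1, -0.93 without its replicate 2, -0.82 when the second Poly I:C-then-LPS library was left out and -0.98 without PBS then LPS replicate 1.

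The LPS effect after Poly I:C also differed between 6 h and 2 h. By sign it was larger at 6 h in 1077 genes, 8.99% of those tested, and smaller in 1480, 12.4%. Of the same 40 genes, picked as said above, 19 differed. Larger at 6 h were Nos2 (4.42), Cxcl10 (2.57), Socs3 (2.56), Il1b (2.48), Ptgs2 (2.07), Irg1 (1.46), Tlr3 (1.31), Il12b (1.18), Hif1a (0.82) and Slc2a1 (0.78). For Cxcl10, Ptgs2, Irg1, Tlr3 and Hif1a the level after LPS was lower at 6 h than at 2 h, beside lower controls. Cxcl10 stood at 1859 and 1850 FPKM after LPS at 6 h against 2306 and 2312 FPKM at 2 h. Levels after LPS were higher at 6 h for Nos2, Il1b, Il12b and Slc2a1, and overlapped for Socs3. The lowered genes Txnip (2.12) and Sertad3 (1.46) were less negative at 6 h. Differences were negative for Cd300lb (-2.73), Egr1 (-2.54), Il23a (-2.40), Fos (-2.17), Cebpa (-2.07), Cxcr4 (-2.02) and Cxcl1 (-1.54). Without Poly I:C then PBS replicate 1 at 2 h, Hif1a (0.79) and Il12b (1.02) did not pass, and other differences changed in size. The effect at 2 h was then 6.12 for Socs3, 7.23 for Il1b and 6.43 for Ptgs2, against 4.99, 6.56 and 5.72 with it. This narrowed the gap to their effects at 6 h, 7.55, 9.05 and 7.79. For Cxcl1 the effect at 2 h was 8.68 against 8.08, which widened the gap to 6.54 at 6 h. Leaving out other single libraries also ended calls for Cxcl1, Sertad3, Socs3 and Ptgs2, and no difference turned direction. Groups of 2 were too small for a check of single outlying libraries.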

How the results depend on the processing

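Leaving out 1 library at a time gave 1094 to 1246 raised and 449 to 588 lowered genes. The lowest of both came without Poly I:C then PBS replicate 2. The same step gave 146 to 836 genes with a larger and 129 to 801 with a smaller effect after Poly I:C than after PBS, the highest of both without PBS then LPS replicate 2. It gave 611 to 943 genes with a larger and 969 to 1331 with a smaller effect at 6 h than at 2 h. With the 2 h libraries alone 609 genes were lowered, and 109 and 86 had a larger and a smaller effect after Poly I:C. A pseudocount of 0.1 gave 184 larger ones. With a replicate block the 6 counts were 1538, 919, 228, 171, 929 and 1322. Deviations of like-numbered libraries correlated at -0.19 to 0.078 over 15 pairs of groups. With 2 libraries per group this cannot decide whether like-numbered libraries shared an animal or culture. Of 140 named genes 124 were called after LPS, 20 of these were lost under at least 1 of 11 settings, 15 of them without Poly I:C then PBS replicate 1, and none reversed. Absolute depth is unknown, which limits weakly expressed genes most. Where a group kept 1 library, it was assumed to vary like the other groups.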
